A study of Mus musculus with 18 samples.

Results

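The 10 genes described here encode receptors and an adaptor that macrophages use to take up lipoproteins, bacteria, glycoproteins, folate and dying cells: Cd36, Msr1, Marco, Stab1, Mrc1, Folr2, Dab2, Axl, Mertk and Trem2. They were chosen by symbol, matched to the Entrez gene IDs of both deposited count tables, and make up 10 of the 24052 genes in each table. All 10 had counts in both experiments. All 10 passed the filter on low counts in both when all groups of an experiment were filtered together. RNA came from mouse bone marrow-derived macrophages, which are C57BL/6 marrow cells grown in 20 ng/ml M-CSF, and was sequenced from the poly(A) end in 18 libraries. In experiment 1, wild-type cells were given 0.25 mM dimethyl itaconate for 12 h and then 100 ng/ml LPS from E. coli 0111:B4 for 4 h (compound plus LPS), vehicle and then LPS (LPS), dimethyl itaconate alone (compound), or vehicle alone (vehicle), with 3 libraries per group. In experiment 2, 3 libraries of Irg1-/- macrophages were set against 3 of wild-type macrophages, and both genotypes had been held for 24 h in LPS (100 ng/ml) with interferon gamma (50 ng/ml), so that there was no unstimulated group. Dimethyl itaconate is a membrane-permeable ester of itaconate, and Irg1, listed under its current symbol Acod1, encodes the enzyme that makes itaconate. The labels do not describe the Irg1 allele, and they do not say whether the libraries of a group came from separate animals or cultures, so p-values measure the spread between these libraries, which may be technical.

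Scavenger receptors are a loose family of unrelated proteins that bind modified lipoproteins, bacterial surfaces and other polyanionic or lipid ligands and bring them into the cell. Efferocytosis, the uptake of dying cells, uses receptors that see phosphatidylserine either directly or through a bridging protein. Axl and Mertk are receptor tyrosine kinases that need a bridge, Gas6 or Pros1. Mrc1 (CD206), Msr1, Stab1 and Folr2 are also read as surface markers of alternatively activated or tissue-repair macrophages, and macrophages lower several such markers when they meet bacterial products.

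Library depth ran from 955718 to 7629669 counts in experiment 1 and from 3088644 to 5491684 counts in experiment 2. LPS replicate 3 was the shallowest library, and 17.6% of its counts came from Prdx1, against 3.81% and 3.28% in the other LPS libraries. Levels below are CPM, counts per 1000000 of a library's TMM-scaled total, in replicate order 1, 2 and 3. On this scale 3 counts in 1 library correspond to 0.291 to 5.45 CPM in experiment 1, the highest value being that of LPS replicate 3, and to 0.518 to 0.994 CPM in experiment 2. The targeted gene followed its label: Acod1 averaged 24.9 ± 8.84 CPM in Irg1-/- cells and 4340.2 ± 285 CPM in wild-type cells (SD, n = 3 each). Il1b, an LPS-induced cytokine, averaged 1269 ± 436 CPM with LPS and 3.39 ± 2.79 CPM with vehicle, and the oxidant-defence gene Nqo1 62.1 ± 18.4 CPM with the compound and 7.98 ± 1.55 CPM with vehicle. All 8 macrophage markers listed were detected in both experiments. Of markers of other cells, 5 of the 6 T and NK cell markers in the table were at 0 in every library of each experiment, and B cell markers summed to at most 2.82 CPM. Neutrophil markers were present, with sums of 296 to 531 CPM in experiment 1 and 78.3 to 119 CPM in experiment 2. Markers of resident tissue macrophages were scarce: Clec4f was at 0 throughout, and most of that list's counts came from Siglec1.

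Cd36, a class B scavenger receptor for oxidised lipoproteins and long-chain fatty acids, rose with dimethyl itaconate whether or not LPS followed, and LPS by itself left it without a call. Cd36 (Entrez gene 12491, chr5:17781690-17888959, GRCm38.p6) stood at 3028, 3251 and 2635 CPM with compound plus LPS, 622, 553 and 349 CPM with LPS, 2722, 2673 and 3443 CPM with the compound and 801, 621 and 908 CPM with vehicle. Every library given the compound lay above every library without it. Compound plus LPS overlapped compound, and LPS overlapped vehicle. By edgeR's quasi-likelihood test with Benjamini-Hochberg adjustment over 10285 genes, it was 3.79-fold higher with the compound than with vehicle (log2 1.92 ± 0.31, adjusted p = 0.00146). It was 5.83-fold higher with compound plus LPS than with LPS (log2 2.54 ± 0.32, adjusted p = 3.61e-05). LPS against vehicle gave log2 -0.61 ± 0.30 (adjusted p = 0.127), a difference that passed the threshold with DESeq2 (-0.71, adjusted p = 0.021) and with library totals alone (-1.54, adjusted p = 0.0016). In bulk RNA, fewer cells carrying a transcript and less of it per cell cannot be told apart, here and in all results below.

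The 250 bases before a RefSeq start of Cd36 (GRCm38.p6, chr5:17835897-17836146, minus strand) are shown because this gene carried the largest increase with the compound among the 10. This window lies inside the span of Cd36 given above, before an internal start. The bases before the upstream end of that span were not searched. Capitals mark the motif matches, a CCAAT box and a pair of GC boxes.
Cd36: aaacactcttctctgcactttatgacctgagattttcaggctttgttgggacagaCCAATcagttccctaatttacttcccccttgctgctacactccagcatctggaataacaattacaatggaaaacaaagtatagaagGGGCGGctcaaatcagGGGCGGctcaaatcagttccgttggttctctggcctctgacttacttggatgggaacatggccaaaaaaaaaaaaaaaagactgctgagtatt
The windows were searched on both strands for 9 motifs, and the share of 32851 RefSeq promoter windows of the same length that held each is given as the background. An antioxidant response element core (TGACNNNGC) was in 10.2% of them, an AP-1 site (TGANTCA) in 6.75%, an NF-kB-type site in 0.356%, a PU.1 core (GAGGAA) in 23.3%, the core of an interferon-stimulated response element in 2.98% and a C/EBP-type site (TTGCGCAA) in 0.164%. A TATA box (TATAAA) was in 12.4%, a CCAAT box in 33.8% and a GC box (GGGCGG) in 32.7%. No antioxidant response element core was in this window of Cd36. A match, or the lack of one, describes these letters only. Promoter windows were found for 9 of the 10 genes.

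**Figure D1:**
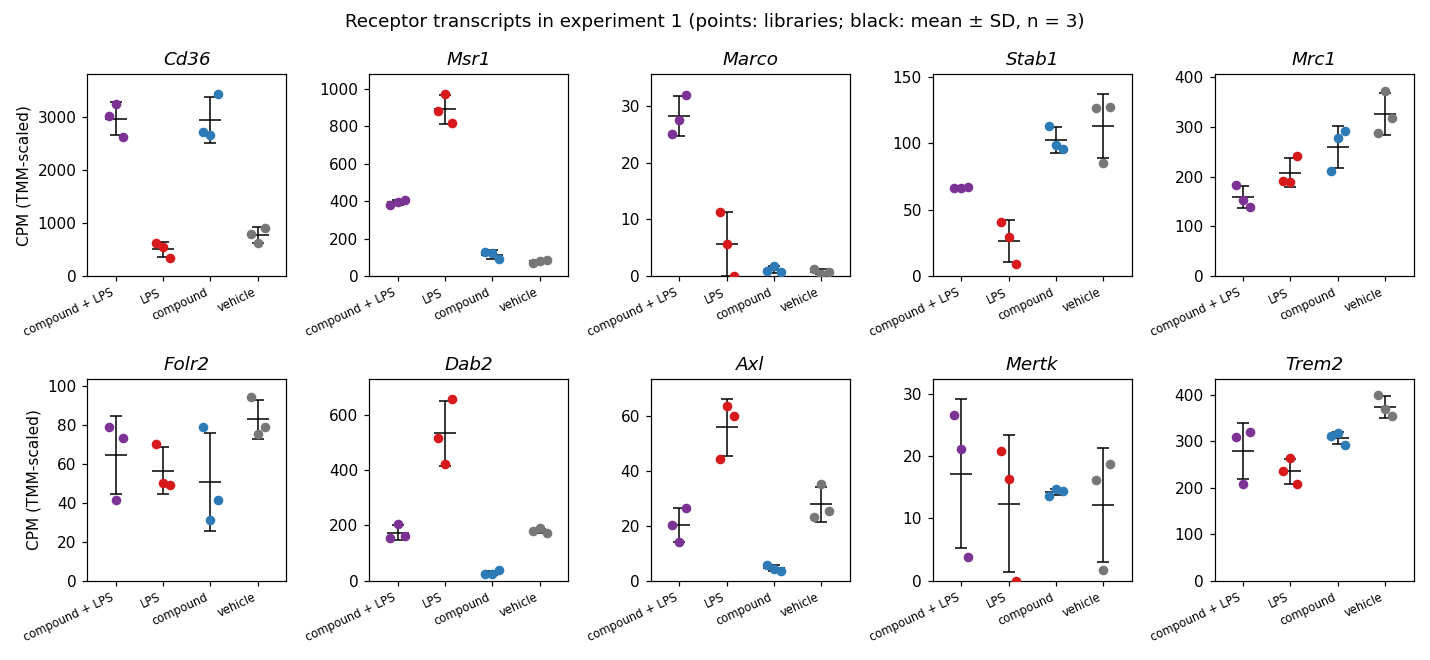
Level of each of the 10 genes in experiment 1 in CPM, with the groups compound plus LPS, LPS, compound and vehicle along the horizontal axis; points are libraries and black marks are the mean ± SD (n = 3). Cd36 is higher in both groups given the compound, with means of 2971 and 2946 CPM against 508 and 777 CPM without it, while Dab2 and Axl are lowest with the compound alone.

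Msr1 had the largest fitted increase with LPS among the 10 genes, and it was lower where the compound had been given before LPS. Msr1 (Entrez gene 20288, chr8:39543232-39642750) encodes the class A scavenger receptor, which takes up acetylated lipoproteins and bacteria. Its level was 379.9, 394 and 404 CPM with compound plus LPS, 883, 971 and 815 CPM with LPS, 131, 124 and 90.0 CPM with the compound and 71.5, 82.6 and 83.7 CPM with vehicle. The 4 groups did not overlap, in the order LPS, compound plus LPS, compound, vehicle. It was 11.2-fold higher with LPS than with vehicle (log2 3.49 ± 0.29, adjusted p = 4.44e-08) and 3.42-fold higher with compound plus LPS than with the compound (log2 1.77 ± 0.27, adjusted p = 8.69e-05). With compound plus LPS it was 2.27-fold lower than with LPS (log2 -1.18 ± 0.26, adjusted p = 0.00532). The neighbours at the low end, compound and vehicle, differed by an amount that did not pass the test (log2 0.54 ± 0.26, adjusted p = 0.382).

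Marco, the other class A receptor among the 10, was higher where the compound had been given before LPS. It binds bacteria and inhaled particles and is induced by microbial products. Marco (Entrez gene 17167, chr1:120474538-120505024) had 25.1, 27.5 and 32.0 CPM with compound plus LPS, 11.3, 5.61 and 0 CPM with LPS, 0.824, 1.82 and 0.734 CPM with the compound and 1.26, 0.340 and 0.801 CPM with vehicle. These rest on few reads outside the first group: 128, 90 and 103 counts with compound plus LPS, 34, 10 and 0 with LPS, 7, 11 and 7 with the compound, and 13, 1 and 5 with vehicle. The libraries with compound plus LPS stood above all others, whereas the LPS libraries overlapped both unstimulated groups through the 0 in replicate 3. Marco was 25.4-fold higher with compound plus LPS than with the compound (log2 4.67 ± 0.65, adjusted p = 3.38e-05) and 4.08-fold higher than with LPS (log2 2.03 ± 0.60, adjusted p = 0.0273). It was 7.44-fold higher with LPS than with vehicle (log2 2.89 ± 0.69, adjusted p = 0.0035), in 2 of 3 same-numbered pairs. With only LPS and vehicle fitted, or only compound and vehicle, the count filter removed Marco. Those comparisons were tested only because the compound plus LPS libraries were in the fit. The call against LPS was lost without LPS replicate 2 (log2 1.85, adjusted p = 0.066) or without any one of the compound plus LPS libraries (1.94 to 2.12, adjusted p = 0.072 to 0.087), and the value was 2.89 without LPS replicate 1 and 1.67 without LPS replicate 3. The call for LPS against vehicle was lost without LPS replicate 1 (2.04, adjusted p = 0.062).

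The window before the RefSeq start of Marco (chr1:120505025-120505274, minus strand) held 1 PU.1 core, in capitals, and none of the other motifs searched. It is shown as that of the member with the largest fold between compound plus LPS and compound.
Marco: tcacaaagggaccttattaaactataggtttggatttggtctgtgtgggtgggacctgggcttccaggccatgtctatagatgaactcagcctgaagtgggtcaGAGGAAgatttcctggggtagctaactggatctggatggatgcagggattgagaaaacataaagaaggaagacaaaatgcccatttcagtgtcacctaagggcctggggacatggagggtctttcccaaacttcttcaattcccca

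Stab1 went against Msr1 and Marco under LPS. Stab1 (Entrez gene 192187, chr14:31139017-31168651) encodes stabilin-1, a large endocytic receptor that clears modified lipoproteins and extracellular matrix fragments and can bind phosphatidylserine; its locus overlaps Nt5dc2 and Gm52148, and the strand option used in counting is not given in the sources used here, so their reads cannot be told apart. Its level was 66.1, 66.1 and 67.1 CPM with compound plus LPS, 40.4, 29.8 and 9.08 CPM with LPS, 113, 98.8 and 95.4 CPM with the compound and 126, 85.0 and 127 CPM with vehicle. LPS libraries were lowest, compound plus LPS libraries came next without overlap, and the ranges of compound and vehicle overlapped at the top. Stab1 was 3.96-fold lower with LPS than with vehicle (log2 -1.99 ± 0.37, adjusted p = 0.000448). It was 2.33-fold higher with compound plus LPS than with LPS (log2 1.22 ± 0.37, adjusted p = 0.0303). That second call was lost with voom (1.01, adjusted p = 0.087), without LPS replicate 2 (1.24, adjusted p = 0.071) and without any one of the compound plus LPS libraries (1.22 to 1.24, adjusted p = 0.075 to 0.096). It was also lost with only the compared groups in the fit (1.23, adjusted p = 0.147). Leaving out 1 library at a time gave 0.89 to 1.67, and LPS replicate 3 held 5 counts of Stab1.

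Dab2 and Axl moved together: both were lower with the compound, with and without LPS, and higher with LPS. Dab2 (Entrez gene 13132, chr15:6299788-6440715) encodes Disabled-2, a clathrin adaptor that brings lipoprotein receptors and integrins into coated pits. The lncRNA Gm16311 and the pseudogene Gm18888 overlap it, and their reads cannot be told apart from those of Dab2 here. It stood at 153, 203 and 163 CPM with compound plus LPS, 516, 423 and 657 CPM with LPS, 24.1, 25.4 and 37.5 CPM with the compound and 178, 189 and 173 CPM with vehicle. The compound libraries lay far below all others, the LPS libraries above all others, and compound plus LPS overlapped vehicle. Dab2 was 6.19-fold lower with the compound than with vehicle (log2 -2.63 ± 0.30, adjusted p = 7.01e-05) and 3.07-fold lower with compound plus LPS than with LPS (log2 -1.62 ± 0.29, adjusted p = 0.00102). It was 2.95-fold higher with LPS than with vehicle (log2 1.56 ± 0.29, adjusted p = 0.000414) and 5.95-fold higher with compound plus LPS than with the compound (log2 2.57 ± 0.30, adjusted p = 4.63e-06).

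Axl (Entrez gene 26362, chr7:25756500-25788924) is the receptor kinase that macrophages raise in inflammation and that depends on Gas6. Its level was 20.4, 14.1 and 26.4 CPM with compound plus LPS, 44.0, 63.4 and 59.9 CPM with LPS, 5.77, 4.29 and 3.67 CPM with the compound and 23.1, 35.0 and 25.3 CPM with vehicle. As for Dab2, the compound libraries were lowest, the LPS libraries highest, and compound plus LPS overlapped vehicle. It was 6.01-fold lower with the compound than with vehicle (log2 -2.59 ± 0.37, adjusted p = 0.000691) and 2.73-fold lower with compound plus LPS than with LPS (log2 -1.45 ± 0.35, adjusted p = 0.00989). It was 4.41-fold higher with compound plus LPS than with the compound (log2 2.14 ± 0.37, adjusted p = 0.000321) and 2.00-fold higher with LPS than with vehicle (log2 1.00 ± 0.35, adjusted p = 0.033). For both genes, the call for compound plus LPS against compound held under every alternative run. Their calls for LPS against vehicle depend on scaling. With library totals alone, which moves the median of all genes tested by -0.93 there, Dab2 stood at 0.56 (adjusted p = 0.101) and Axl at 0.04 (adjusted p = 0.923). For Axl the call for LPS against vehicle was also lost when vehicle replicate 1 or 3, LPS replicate 2 or compound plus LPS replicate 1 was left out (0.86 to 0.99, adjusted p = 0.053 to 0.129). It was lost without the filter on low counts (0.97, adjusted p = 0.073) and with only the compared groups (adjusted p = 0.069). Its call for compound plus LPS against LPS was lost without compound plus LPS replicate 1 or 2 (-1.42 and -1.24, adjusted p = 0.053 and 0.059).

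RefSeq lists 2 starts for Dab2, and the window before each (chr15:6299539-6299788 and chr15:6386498-6386747, plus strand) is shown because this gene had the largest decrease with the compound among the 10. Each held 1 PU.1 core near its upstream end, on the minus strand and set in capitals, and none of the other motifs.
Dab2, first start: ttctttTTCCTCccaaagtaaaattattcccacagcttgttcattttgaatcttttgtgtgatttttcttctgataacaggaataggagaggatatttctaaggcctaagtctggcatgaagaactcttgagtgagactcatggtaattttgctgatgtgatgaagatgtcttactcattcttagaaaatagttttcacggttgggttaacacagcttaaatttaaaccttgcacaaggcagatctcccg
Dab2, second start: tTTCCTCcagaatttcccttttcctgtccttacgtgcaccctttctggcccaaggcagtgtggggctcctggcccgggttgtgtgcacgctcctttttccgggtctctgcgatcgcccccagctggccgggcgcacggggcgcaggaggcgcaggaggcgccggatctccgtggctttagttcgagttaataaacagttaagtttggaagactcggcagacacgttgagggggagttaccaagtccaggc

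Mertk, the other receptor kinase of efferocytosis and the one most used by resting macrophages, showed no call in any comparison of experiment 1. Mertk (Entrez gene 17289, chr2:128698915-128803162) had 26.7, 21.1 and 3.73 CPM with compound plus LPS, 20.9, 16.3 and 0 CPM with LPS, 13.7, 14.7 and 14.4 CPM with the compound and 16.1, 1.70 and 18.7 CPM with vehicle. Single low libraries set the spread: LPS replicate 3 had 0 counts, vehicle replicate 2 had 5 and compound plus LPS replicate 3 had 12. The log2 differences were 0.19 ± 0.75 for LPS against vehicle, 0.18 ± 0.71 for compound against vehicle and 0.28 ± 0.75 for compound plus LPS against LPS, none of them larger than its standard error. The third kinase of the family, Tyro3, was at 0 counts in every library of experiment 1.

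Trem2 (Entrez gene 83433, chr17:48346401-48352276) encodes a lipid-sensing receptor that signals through Tyrobp and is carried by lipid-handling macrophages and microglia. It had 309, 209 and 319.5 CPM with compound plus LPS, 235, 263 and 209 CPM with LPS, 312, 317 and 292 CPM with the compound and 401, 369.5 and 354 CPM with vehicle. Vehicle libraries were above all others, compound libraries lay above LPS libraries, and compound plus LPS overlapped both. None of the differences passed the test: LPS against vehicle gave log2 -0.67 ± 0.27, adjusted p = 0.062, and compound against vehicle gave log2 -0.29 ± 0.26, adjusted p = 0.713. The difference between LPS and vehicle passed with DESeq2 (-0.76, adjusted p = 0.0026) and with median-ratio size factors in edgeR (-0.76, adjusted p = 0.032).

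Neither Mrc1 nor Folr2, receptors used as markers of alternative activation, passed the test in any comparison of experiment 1. Mrc1 (Entrez gene 17533, chr2:14229414-14332023) binds mannosylated glycoproteins and hosts Mir511. It had 183, 154 and 139 CPM with compound plus LPS, 192, 189.8 and 241 CPM with LPS, 211, 277 and 291 CPM with the compound and 287, 371 and 317 CPM with vehicle. The 2 LPS-treated groups did not overlap each other, nor did LPS overlap vehicle. LPS against vehicle gave log2 -0.65 ± 0.27, adjusted p = 0.0714, compound plus LPS against compound gave log2 -0.71 ± 0.27, adjusted p = 0.0755, and both passed with DESeq2 (-0.75, adjusted p = 0.0087 and -0.86, adjusted p = 0.0028) and without LPS replicate 3 (-0.73, adjusted p = 0.034 and -0.72, adjusted p = 0.024). The compound moved Mrc1 by -0.32 ± 0.27 against vehicle (adjusted p = 0.673) and by -0.38 ± 0.27 after LPS (adjusted p = 0.373).

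Folr2 (Entrez gene 14276, chr7:101839988-101857190), the folate receptor beta of tissue macrophages, had 78.6, 41.3 and 73.3 CPM with compound plus LPS, 70.2, 50.0 and 49.0 CPM with LPS, 79.1, 31.0 and 41.6 CPM with the compound and 94.3, 75.5 and 78.6 CPM with vehicle. The groups given the compound spread more than the others, and only LPS lay wholly below vehicle. None of its differences passed; the compound against vehicle gave log2 -0.71 ± 0.36, adjusted p = 0.401. The lncRNA Gm10602 overlaps this gene.

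**Figure D2:**
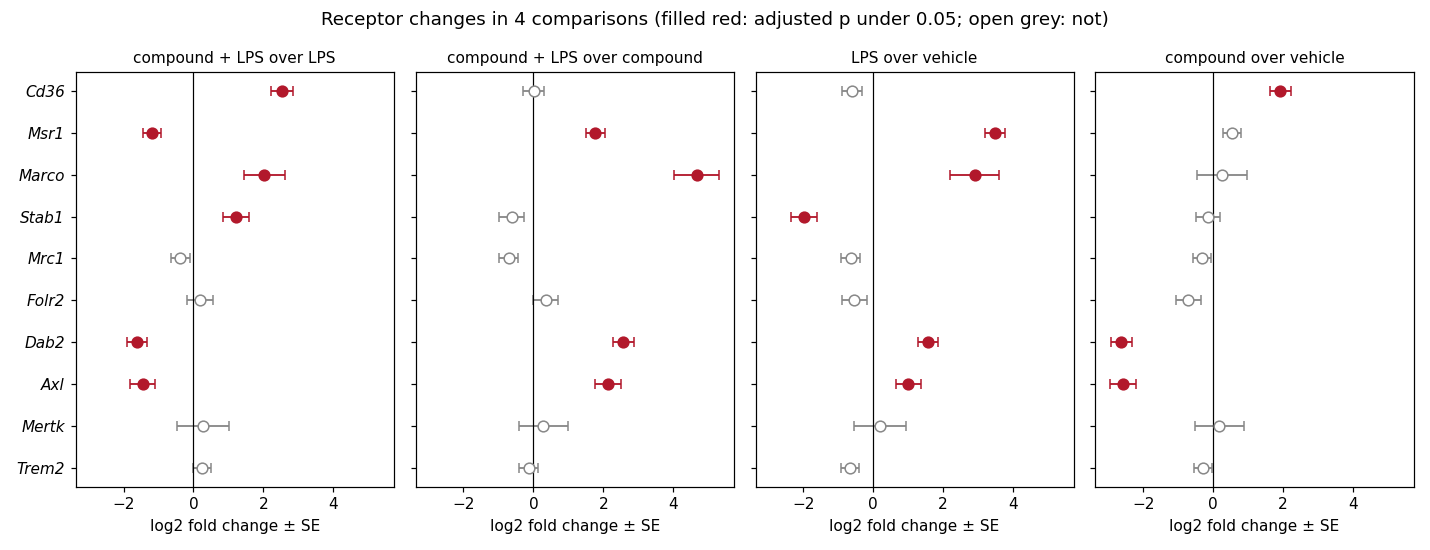
Log2 fold change ± SE of the 10 genes in the 4 comparisons of experiment 1 by edgeR, the first-named group over the second; filled points passed an adjusted p of 0.05. Cd36 lies near 2 or above for both compound comparisons, and Dab2 and Axl lie on opposite sides of 0 for the compound and for LPS.

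Counted over the 10 genes, LPS against vehicle called 5 where 34.3% of all 10285 genes tested were called, so that 5 of 10 is not far from that share. Msr1, Marco, Dab2 and Axl were higher, a direction that held 16% of all genes, and Stab1 was lower, beside 18.4%. This split depends on scaling: library totals alone gave 2 higher (Msr1 and Marco) and 5 lower (Stab1, Mrc1, Trem2, Cd36 and Folr2), RLE factors gave 4 higher and 3 lower, and DESeq2 gave 4 and 4. With the compound against vehicle 3 of the 10 were called, where 2.84% of all genes were: Cd36 was higher, beside 1.33%, and Dab2 and Axl were lower, beside 1.51%. Between compound plus LPS and LPS, 6 of the 10 were called, where 15.9% of all genes were. Cd36, Marco and Stab1 were the 3 higher ones, beside 8.38% of all genes, and Msr1, Dab2 and Axl the 3 lower ones, beside 7.53%. Between compound plus LPS and compound 4 were called, Msr1, Marco, Dab2 and Axl, all higher, where 18.9% of all genes were called and 11.4% were higher. Mrc1 was called lower as well with RLE factors and DESeq2, and both Mrc1 and Stab1 were called lower with voom, library totals alone or only the compared groups, which made 6 called. The difference of Stab1 there was -0.63 ± 0.35 (adjusted p = 0.242). The median log2 difference of the 10 was -0.18 for LPS against vehicle, -0.21 for the compound against vehicle, 0.21 for compound plus LPS against LPS and 0.32 for compound plus LPS against compound. The medians over all genes tested were -0.24, -0.05, 0.13 and -0.06 in the same comparisons. With only the 2 compared groups in the fit, the members called were 3 for compound plus LPS against LPS (Cd36, Msr1 and Dab2) and 3 for LPS against vehicle (Msr1, Dab2 and Stab1), where 9 were tested because the count filter removed Marco. The comparisons share groups, so their values stand side by side and are not independent of each other.

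Groups differed also in marker sums. The sum of the 8 macrophage markers, which include Mrc1 and Mertk, was 3051 to 3980 CPM with the compound and 4595 to 7119 CPM with vehicle, and it was 3981 to 4872 CPM with compound plus LPS and 4581 to 5075 CPM with LPS. The 6 resident macrophage markers summed to 52.4 to 80.1 CPM with the compound and 143 to 163 CPM with vehicle. After LPS the order of that sum was the opposite, at 135 to 211 CPM with compound plus LPS and 87.1 to 111 CPM with LPS. Siglec1, the only gene of that list tested, had an interaction of log2 2.07 ± 0.40, adjusted p = 0.00792. The sum of 9 neutrophil markers overlapped between the compound (367 to 496 CPM) and vehicle (337 to 415 CPM). Mmp8 averaged 208 CPM of that sum with the compound. Of the 7 neutrophil markers tested, 6 had negative differences, and the median was log2 -0.70 beside -0.05 over all genes tested. The 1 neutrophil marker called was higher, where 1.33% of all genes were. Other lists were low and did not overlap: stromal markers summed to 19.3 to 25.6 CPM with the compound and 31.2 to 56.1 CPM with vehicle, dendritic cell markers to 0.495 to 2.31 CPM with the compound and 3.01 to 7.48 CPM with vehicle, and B cell markers to 0 to 0.495 CPM with the compound and 0.801 to 2.82 CPM with vehicle. The part of these sums in the changes of Dab2, Axl and Cd36 was not tested.

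The compound changed the response to LPS for 1 of the 10 genes by the interaction test, which called 2.91% of all genes, 1.52% with a negative sign. Msr1 had an interaction of log2 -1.72 ± 0.37, adjusted p = 0.017: its LPS difference was 1.77 ± 0.27 with the compound and 3.49 ± 0.29 without it. The call was lost with library totals alone (-1.35, adjusted p = 0.079) and when any one of vehicle replicates 1 or 3, compound replicate 1 or compound plus LPS replicates 1 or 3 was left out (-1.75 to -1.61, adjusted p = 0.051 to 0.076). For the others the interaction did not pass, from log2 1.36 ± 0.50, adjusted p = 0.153 for Stab1 and log2 1.01 ± 0.40, adjusted p = 0.184 for Dab2 to log2 0.10 ± 1.03, adjusted p = 0.98 for Mertk. A difference in LPS response of Axl (1.14 ± 0.50, adjusted p = 0.232), Marco (1.77 ± 0.94, adjusted p = 0.33) or Cd36 (0.62 ± 0.42, adjusted p = 0.474) was thus not detectable with these 12 libraries.

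To describe which genes had the pattern most like each member, profiles of log2(CPM + 0.5) over the 12 libraries of experiment 1 were centred and their root mean square distance taken to every gene tested. Among the members themselves the closest pairs were Mrc1 and Trem2 (0.36), Folr2 and Trem2 (0.41) and Dab2 and Axl (0.50). The SD of the same profiles was 0.44 for Mrc1, 0.50 for Folr2 and 0.31 for Trem2, so that these flat profiles lie about as far apart as each varies, whereas it was 1.58 for Dab2 and 1.35 for Axl. For Cd36 the nearest genes were Cat, which encodes catalase (0.32), and Gclm, the modifier subunit of glutamate-cysteine ligase (0.35). For Msr1 they were Ccnyl1 (0.28) and Etnk1, an ethanolamine kinase (0.29). Arl5c (0.26) and Pilra (0.41), an inhibitory receptor, were nearest to Dab2, and Dpysl2 (0.35) and Clec4a1 (0.43) to Axl. Stab1 had Manba, the lysosomal beta-mannosidase (0.21), and Ilvbl (0.26). Marco and Mertk, with few counts, had no gene closer than 0.67 and 0.64. These are distances over libraries that share groups and depth, given as a description.

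Other genes of uptake were taken from lists of bridging molecules, receptors and engulfment machinery, other scavenger and lipoprotein receptors, the TREM family and its signalling, alternative activation, and lipid-sensing and macrophage transcription factors. Over all genes tested, LPS against vehicle called 34.3% (16% higher, 18.4% lower) and the compound against vehicle 2.84%. Compound plus LPS called 15.9% against LPS (8.38% higher, 7.53% lower) and 18.9% against the compound (11.4% higher). The interaction called 2.91%. Counts per list were not tested against these shares, and several lie near them. Of 24 engulfment genes tested, the compound against vehicle called 1 higher and 3 lower, and the 3 lower were the subunits of complement C1q, which tags dying cells. C1qa had 56.7, 61.1 and 49.3 CPM with the compound and 430.2, 536 and 400.0 CPM with vehicle, 8.17-fold lower (log2 -3.03 ± 0.30, adjusted p = 1.84e-05). C1qc was 4.69-fold lower (log2 -2.23 ± 0.36, adjusted p = 0.00145) and C1qb 4.22-fold lower (log2 -2.08 ± 0.38, adjusted p = 0.00419). In this list 2 were higher and 5 lower with compound plus LPS than with LPS. C1qa was lower there too (106 ± 29.7 CPM with compound plus LPS and 462 ± 42.9 CPM with LPS, adjusted p = 9.4e-05), as did the bridging protein Pros1 (log2 -1.40 ± 0.37, adjusted p = 0.0153), while Calr, whose protein marks dying cells for uptake when exposed, was higher (log2 1.42 ± 0.34, adjusted p = 0.00833). LPS against vehicle called 3 higher, among them the scramblase Xkr8 (log2 4.36 ± 0.63, adjusted p = 3.44e-05) and the integrin subunit Itgav (log2 1.95 ± 0.36, adjusted p = 0.000387), and 4 lower, among them Lrp1, an endocytic receptor for calreticulin-tagged cells (log2 -1.72 ± 0.34, adjusted p = 0.000765). Against the compound alone, compound plus LPS had 5 higher and 1 lower. Gas6, the bridge to Axl and Mertk, stood at 145 ± 53.5 CPM with compound plus LPS, 80.6 ± 17.7 CPM with LPS, 187 ± 49.1 CPM with the compound and 251 ± 60.3 CPM with vehicle, and was 3.09-fold lower with LPS than with vehicle (adjusted p = 0.0011).

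Of 13 other scavenger and lipoprotein receptors tested, LPS against vehicle called 5 higher and 3 lower, where 34.3% of all genes were called. Olr1, the lectin-like receptor for oxidised LDL, had 17.5, 12.9 and 7.26 CPM with LPS and 0.389, 0 and 0 CPM with vehicle, 62.1-fold higher (log2 5.96 ± 0.87, adjusted p = 3.81e-05). This fold rests on 80 counts with LPS and 4 with vehicle, all 4 in vehicle replicate 1. Vldlr had 0 counts in the LPS libraries and 45 in the vehicle libraries, at least 4.12-fold lower. The compound against vehicle called 1, Cxcl16, which is also a scavenger receptor for oxidised lipids, lower (log2 -1.75 ± 0.28, adjusted p = 0.00146). With compound plus LPS 4 were higher and 2 lower than with LPS: the beta-glucan receptor Clec7a was 3.80-fold higher (log2 1.93 ± 0.31, adjusted p = 0.000393), and Lrp1, which is in both lists, 2.55-fold higher (log2 1.35 ± 0.34, adjusted p = 0.0113). With compound plus LPS 5 were higher and 1 lower than with the compound, with Olr1 46.8-fold higher (log2 5.55 ± 0.82, adjusted p = 6.82e-05). Olr1 had 118 counts with compound plus LPS and 5 with the compound, so that fold rests on few reads.

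Around Trem2, LPS against vehicle called 2 higher and 4 lower of 12 TREM family and signalling genes tested, beside 34.3% of all genes. Treml1 had 0 counts with LPS and 120 with vehicle, at least 11.0-fold lower, and the phosphatase Inpp5d was 4.97-fold lower (log2 -2.31 ± 0.52, adjusted p = 0.00229). In compound plus LPS cells 4 were higher and 1 lower than in LPS cells: Treml4 had 104 counts against 0, at least 16.0-fold higher, and the phospholipase Plcg2 was 3.69-fold higher (log2 1.88 ± 0.58, adjusted p = 0.0354). Compound against vehicle called 0 of the 12, with 2 at an unadjusted p under 0.05, 1 by DESeq2 and 3 by voom.

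Of 15 genes of alternative activation, LPS against vehicle called 7 higher and 3 lower, where 34.3% of all genes were called. The higher ones included the cytokine Il10 (95 counts against 11, log2 5.20 ± 0.99, adjusted p = 0.000559) and the chemokine Ccl24 (47 counts against 12, log2 3.67 ± 0.96, adjusted p = 0.00665). The chemokine Ccl22 was another, with 104 counts against 0 and at least 126-fold higher. Some other genes of this list had lower levels or few counts. Clec10a averaged 3.87 ± 3.67 CPM with LPS and 10.7 ± 0.744 CPM with vehicle. Chil3 averaged 27.4 ± 7.37 CPM with LPS and 34.1 ± 1.58 CPM with vehicle. Mgl2 had 0 counts with LPS and 27 with vehicle, Arg1 0 and 12, and Retnla 0 in both groups. In compound plus LPS cells 2 were higher and 5 lower than in LPS cells, with Ccl22 at log2 -4.85 ± 0.84, adjusted p = 0.00158, Il10 at log2 -4.77 ± 1.01, adjusted p = 0.00368 and the signalling inhibitor Socs2 at log2 -4.22 ± 0.93, adjusted p = 0.00461. These values rest on few reads: 7 counts against 104 for Ccl22, 7 against 95 for Il10 and 7 against 47 for Socs2. Tgm2, a transglutaminase, was lower with the compound than with vehicle (log2 -1.23 ± 0.28, adjusted p = 0.0212), and its response to LPS was larger with the compound (interaction log2 1.63 ± 0.39, adjusted p = 0.0311).

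Of 22 transcription factors and regulators tested, LPS against vehicle called 6 higher and 9 lower, where 34.3% of all genes were called. Pparg, the nuclear receptor for fatty acids with a known role in Cd36 transcription, had 9.60, 9.79 and 4.35 CPM with compound plus LPS, 0.993, 0 and 0 CPM with LPS, 22.5, 20.8 and 17.5 CPM with the compound and 48.6, 24.1 and 65.8 CPM with vehicle. Its 95 counts with compound plus LPS against 3 with LPS gave a ratio of 14.6 with an adjusted p of 0.0032 (95% interval from counting alone, 4.85 to 72.2), and the interaction, which rests on those 3 counts, passed as well (log2 5.02 ± 0.90, adjusted p = 0.00454). The compound against vehicle called 2 of the 22, both lower. Nr4a1, an immediate early nuclear receptor, had 2 counts with the compound against 63 with vehicle, a ratio of 0.0257 with a 95% counting interval of 0.00304 to 0.0967. Maf, a regulator of tissue-macrophage genes, was 3.01-fold lower (log2 -1.59 ± 0.31, adjusted p = 0.00615). Maf was also 10.8-fold lower with compound plus LPS than with LPS (log2 -3.43 ± 0.33, adjusted p = 4.71e-06), and the nuclear receptor Ppard 8.45-fold higher (log2 3.08 ± 0.60, adjusted p = 0.00201). The list medians in log2 for compound plus LPS against LPS were 0.08 for engulfment, 0 for scavenger receptors (the value of Vldlr, at 0 counts in both groups), 0.84 for TREM signalling, -0.63 for alternative activation and 0.43 for regulators, beside 0.13 over all genes tested. For LPS against vehicle they were -0.27 for engulfment, -0.44 for scavenger receptors, -0.61 for TREM signalling, 0.43 for alternative activation and -0.64 for regulators, beside -0.24 over all genes.

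**Figure D3:**
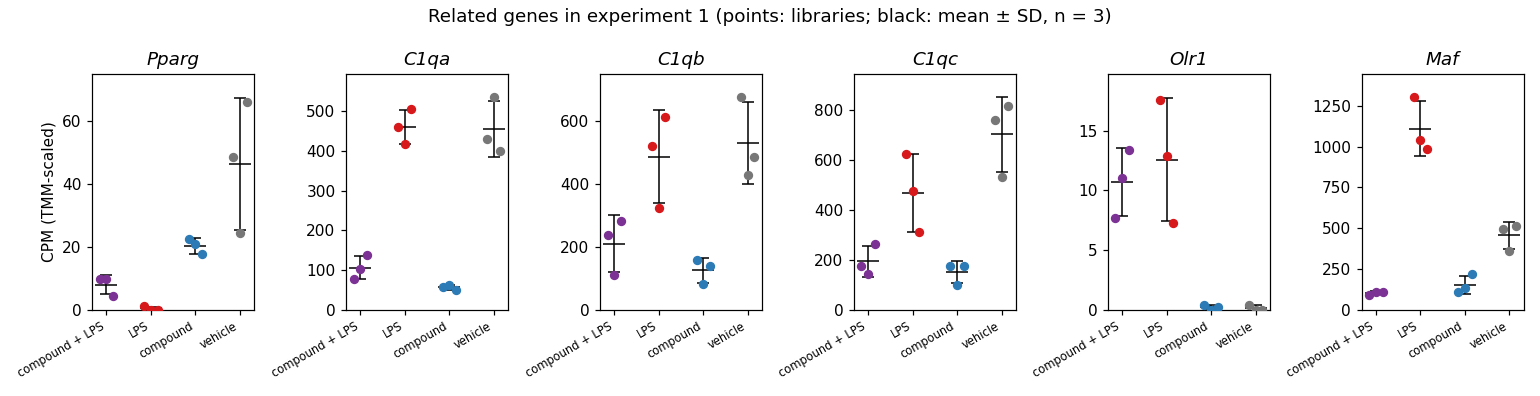
Level in CPM of Pparg, C1qa, C1qb, C1qc, Olr1 and Maf in the 12 libraries of experiment 1, grouped as compound plus LPS, LPS, compound and vehicle; points are libraries and black marks the mean ± SD (n = 3). C1qa averages 106 and 55.7 CPM in the groups given the compound, with and without LPS, and 462 and 455 CPM in the groups not given it.

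In experiment 2, which asked what loss of Irg1 does after 24 h of LPS and interferon gamma, Folr2, Cd36 and Marco were lower in Irg1-/- cells, but the calls depended on whether the shared replicate numbers were used. Folr2 had 64.9, 41.5 and 63.7 CPM in Irg1-/- cells and 76.2, 90.5 and 105 CPM in wild-type cells. Cd36 had 334, 345 and 316 CPM in Irg1-/- cells and 435, 483 and 428 CPM in wild-type cells. Marco had 20.6, 18.3 and 33.0 CPM in Irg1-/- cells and 34.1, 37.3 and 36.2 CPM in wild-type cells. In all 3 genes, every Irg1-/- library lay below every wild-type library. Msr1 had 307, 485 and 278 CPM in Irg1-/- cells and 228, 369.5 and 225 CPM in wild-type cells, where replicate 2 was the high library of both genotypes and Irg1-/- was above wild type in 3 of 3 same-numbered pairs.

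Without a term for replicate number, edgeR called 0 of the 10 genes, with 3 at an unadjusted p under 0.05 and 0 by DESeq2 and by voom, where 0.0632% of 9491 genes were called. The differences were log2 -0.67 ± 0.23, adjusted p = 0.565 for Folr2 and log2 -0.44 ± 0.17, adjusted p = 0.61 for Cd36. They were log2 -0.58 ± 0.25, adjusted p = 0.677 for Marco and log2 0.38 ± 0.26, adjusted p = 0.897 for Msr1. Same-numbered libraries deviated together in all 3 pairs (correlations 0.356 to 0.457), and with replicate number as a block 4 of the 10 were called, where 6.26% of all genes were, 2.9% higher and 3.36% lower. In that fit Folr2 was 1.60-fold lower (log2 -0.68 ± 0.14, adjusted p = 0.000918), Cd36 1.35-fold lower (-0.43 ± 0.10, adjusted p = 0.00213), Marco 1.51-fold lower (-0.59 ± 0.18, adjusted p = 0.0387) and Msr1 1.30-fold higher (0.37 ± 0.10, adjusted p = 0.012). The block leaves 2 residual degrees of freedom.

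Trem2 lay lower in each Irg1-/- library as well (41.7, 42.6 and 47.8 CPM in Irg1-/- cells and 49.4, 52.6 and 53.4 CPM in wild-type cells), without a call in either fit (adjusted p = 0.934 and 0.412 with the block). Mertk stood higher in Irg1-/- cells in 3 of 3 pairs (24.8, 36.0 and 31.8 CPM in Irg1-/- cells and 14.9, 31.9 and 22.7 CPM in wild-type cells), also without a call (adjusted p = 0.891 and 0.153 with the block). Non-overlapping groups were found for 4 of the 10, all lower in Irg1-/- cells, and for 13.4% of all genes tested, 7.23% in that direction. The means of the other 4 genes differed by less than the larger of the group SDs. Mrc1 averaged 8.32 ± 2.91 CPM in Irg1-/- cells and 9.93 ± 3.77 CPM in wild-type cells, and Stab1 averaged 22.5 ± 4.61 CPM in Irg1-/- cells and 22.6 ± 0.605 CPM in wild-type cells. Dab2 averaged 57.7 ± 3.44 CPM in Irg1-/- cells and 61.2 ± 15.2 CPM in wild-type cells, and Axl averaged 21.1 ± 4.21 CPM in Irg1-/- cells and 24.1 ± 5.51 CPM in wild-type cells (SD, n = 3 each). The median log2 difference of the 10 was -0.21, beside 0.01 over all genes tested. Neutrophil markers summed to 99.1 to 119 CPM in Irg1-/- cells and 78.3 to 104 CPM in wild-type cells. Stromal markers summed to 20.0 to 36.0 CPM in Irg1-/- cells and 35.8 to 40.8 CPM in wild-type cells. Dendritic cell markers summed to 14.8 to 22.7 CPM in Irg1-/- cells and 20.5 to 25.9 CPM in wild-type cells. The 8 macrophage markers, which include Mrc1 and Mertk, summed to 2038 to 2417 CPM in Irg1-/- cells and 2246 to 2523 CPM in wild-type cells. With the block, 1 of these 8 was called higher and 3 lower, beside 2.9% and 3.36% of all genes tested. The part of these lists in the differences was not tested.

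**Figure D4:**
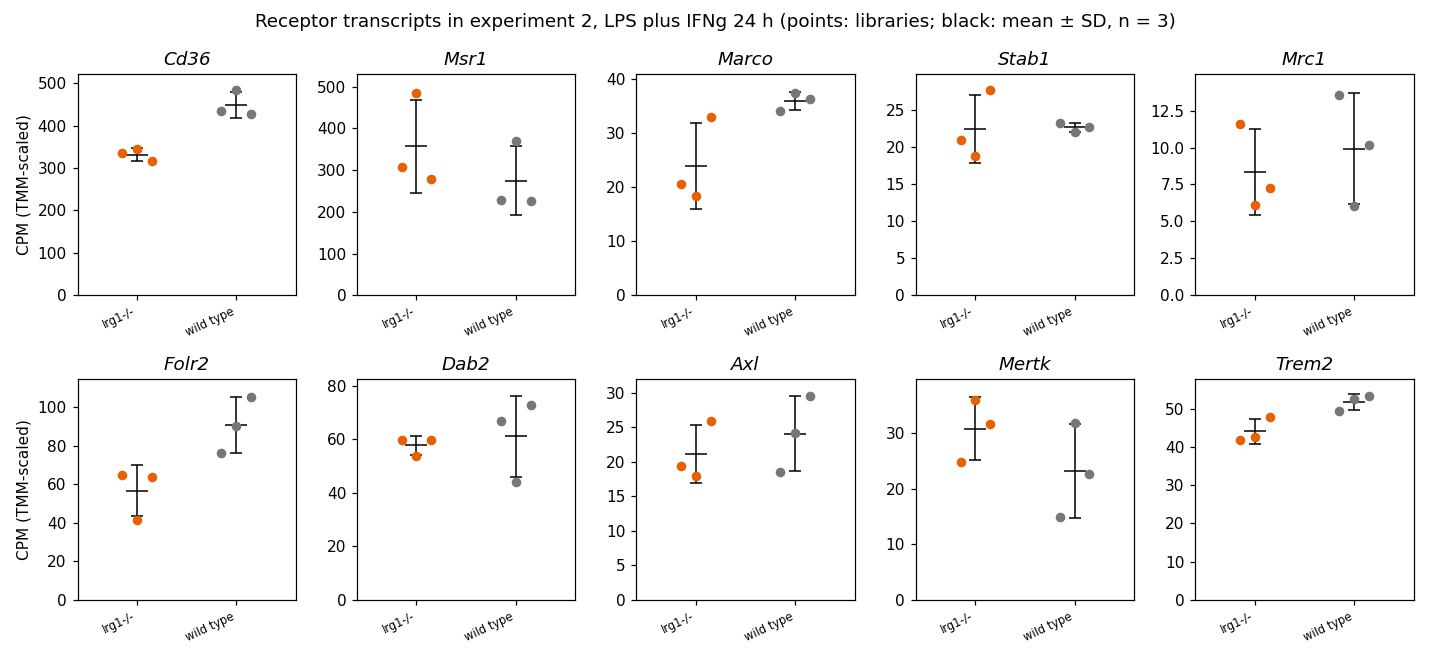
Level of each of the 10 genes in experiment 2 in CPM, Irg1-/- left of wild type, both stimulated with LPS and interferon gamma; points are libraries and black marks the mean ± SD (n = 3). Cd36, at 332 and 449 CPM, and Folr2, at 56.7 and 90.7 CPM in Irg1-/- and wild-type cells, separate without overlap.

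**Figure D5:**
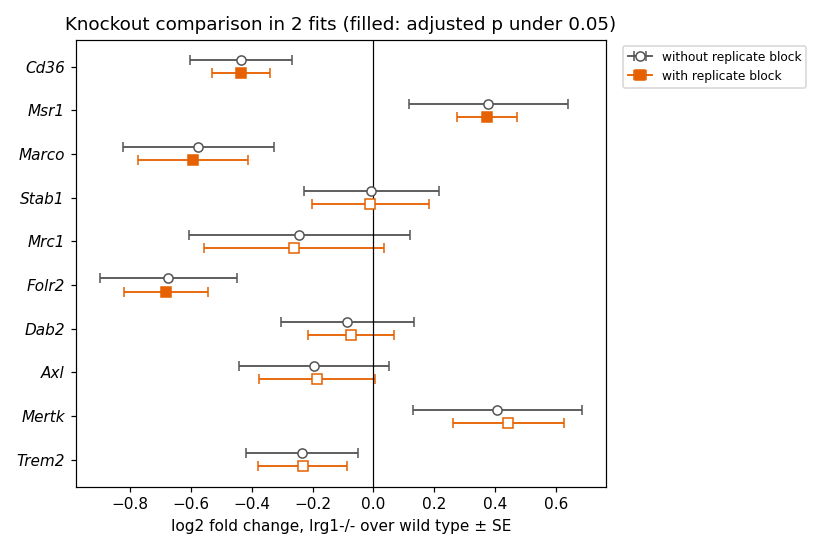
Log2 fold change ± SE of each gene, Irg1-/- over wild type, in the edgeR fits without and with replicate number as a block; filled symbols passed an adjusted p of 0.05. Estimates barely move between the fits, while the SE of Msr1 narrows to 0.10 with the block, against 0.26 without it.

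Of the other lists, Irg1-/- against wild type called Tgfbi, an extracellular matrix protein listed with alternative activation, among 10 genes tested in its list. Tgfbi was 2.76-fold higher, at 56.3 ± 6.86 CPM in Irg1-/- cells and 20.5 ± 2.90 CPM in wild-type cells (log2 1.47 ± 0.21, adjusted p = 0.03). None of 23 engulfment genes was called, with 2 at an unadjusted p under 0.05 and 0 by DESeq2 and voom, and with the block 1 was higher and 3 lower. None of 11 scavenger receptors was called, with 3 at an unadjusted p under 0.05 and 0 by the other tools, and with the block 3 were lower. Over all genes tested, 0.0632% were called without the block and 6.26% with it.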

How the data were processed

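Poly(A) RNA was caught on oligo-dT beads, copied from barcoded primers, pooled according to Actb and amplified into strand-specific libraries, per the labels' protocols. The submitters' processing notes name STAR, HTSeq, DESeq2 and mm10; versions, annotation and counting strand are not given in the sources used here. Per the file headers and values, the authors deposited unscaled counts for every gene, whole numbers with a different total in each library, and no molecular identifiers are described, so intervals and floors hold for counting error alone. Genes carry Entrez IDs, of which 23969 of 24052 were matched to a symbol through RefSeq GRCm38.p6; the other 83 held at most 2.14% of a library's counts. All deposited columns belong to the 18 libraries.

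Each experiment was fitted over all its genes with edgeR 4.0.16 (R 4.3.3): TMM scaling, filterByExpr with a minimum count of 10, group means and 2-sided quasi-likelihood tests, with Benjamini-Hochberg adjustment and calls at 0.05. This tested 10285 and 9491 genes with 8 and 4 residual degrees of freedom. Standard errors derive from the log2 fold change and F. For a group with no reads, a bound uses 3 counts in that whole group. In experiment 2, same-numbered libraries deviated together in 3 of 3 pairs (correlation above 0.1), so values with replicate number as a block are given; in experiment 1 this held for 7 of 18 pairs, and for all 3 between compound plus LPS and LPS (0.103 to 0.182). Alternatives were median-ratio (RLE) factors, library totals alone, no filter, DESeq2 1.42.0, limma 3.58.1 voom with sample quality weights, the compared groups only, the block, and leaving out each library. The code was tested on simulated data. The genes, lists and tests were chosen with earlier results of these data known. Besides the members, the text names the Acod1 check, the 2 nearest genes per member, and up to 3 genes per list and comparison, the called ones with the largest fitted change, with Gas6 added as the ligand of Axl and some results of this rule not reported here; promoters were printed for members chosen after their values were seen. Promoter windows are from RefSeq (GRCm38.p6).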

Additional observations from a re-analysis of the deposited data

Results flagged for a closer look

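Msr1 was picked out because its response to LPS differed between cells given dimethyl itaconate and cells given vehicle by the interaction test (log2 -1.72 ± 0.37, adjusted p = 0.017, edgeR's quasi-likelihood test with Benjamini-Hochberg adjustment). It was 393 ± 12.2 CPM with compound plus LPS and 115 ± 21.8 CPM with the compound, and 889.5 ± 78.0 CPM with LPS and 79.3 ± 6.77 CPM with vehicle (SD, n = 3 each).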

How the results depend on the processing

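Of 1058 values recomputed for the 10 genes, 964 kept their direction and side of the threshold, 29 lost a call, 23 gained 1 and 42 changed sign. All 3 members called for compound against vehicle stayed called under every alternative run, as did Cd36, Msr1 and Dab2 for compound plus LPS against LPS. The cause of each change below was not tested, except that fitting the compared groups alone leaves fewer libraries.

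Sign changes with library totals alone: Mertk -0.73 (LPS against vehicle), -0.047 (compound against vehicle) and -0.29 (compound plus LPS against compound), Folr2 -0.25 and Cd36 -0.58 (compound plus LPS against compound), Mrc1 0.34 (interaction) and Stab1 0.039 (Irg1-/- against wild type). With RLE factors they were Cd36 -0.13 and Stab1 0.0016, with DESeq2 Mertk -0.015, Cd36 -0.13 and Stab1 0.0011, with voom Marco -0.016 (compound against vehicle) and Mrc1 0.0498, and without the filter Cd36 -0.019. None of these was called.

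Genes called for LPS against vehicle were 5798 with totals alone (853 higher, 4945 lower, against 1641 and 1888) and 2108 with only the compared groups. Members called there were 8 with DESeq2 and 3 with only the compared groups. Compound against vehicle gave 458 genes without the filter, 619 with DESeq2, 1486 with voom and 990 with only its groups; totals alone gave 72 higher and 193 lower against 137 and 155. With compound plus LPS against LPS there were 653 genes and 3 members from only its groups, and with totals alone 904 higher and 527 lower against 862 and 774. Its comparison with the compound gave 3656 with voom and 3196 with only its groups, and with totals alone 709 higher and 2026 lower against 1170 and 778. The interaction gave 497 genes without the filter, 760 with DESeq2 and 485 with voom, and 0 members with totals alone (214 genes higher and 86 lower, against 143 and 156). Irg1-/- against wild type gave 40 genes without the filter and 44 with DESeq2. With the replicate block it gave 594 genes and 4 members.
In experiment 1 same-numbered libraries were not paired over all groups, and the replicate block left members called at 5 and 3 for LPS and the compound against vehicle, at 6 and 4 for compound plus LPS against LPS and against the compound, and at 1 for the interaction. It changed no call of a member there, including compound plus LPS against LPS, where all 3 pairs correlated above 0.1. Totals alone moved the median of all genes by -0.93, -0.20, 0.15, -0.59 and 0.35 in these comparisons. RLE factors moved it by -0.14 where compound plus LPS met the compound.

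Leaving out 1 library at a time gave 2762 to 4026 genes and 4 to 6 members for LPS against vehicle and 140 to 803 and 3 to 3 for the compound against vehicle. It gave 885 to 1948 and 3 to 6 for compound plus LPS against LPS and 1362 to 2831 and 4 to 5 when set against the compound, 132 to 806 and 0 to 1 for the interaction, and 3 to 6 and 0 to 0 for Irg1-/- against wild type. Values that changed sign ranged, for compound plus LPS against compound, over -0.0596 to 0.14 (Cd36), -0.21 to 0.74 (Mertk) and -0.26 to 0.0289 (Trem2). They ranged over -0.20 to 0.77 (Marco) and -0.28 to 0.59 (Mertk) for compound against vehicle, and for Mertk over -0.30 to 0.59 for LPS against vehicle, -0.20 to 0.77 for compound plus LPS against LPS and -0.41 to 0.57 for the interaction. For Mrc1 they were -0.18 to 0.04 (interaction) and -0.56 to 0.0259 (Irg1-/- against wild type), and for Irg1-/- against wild type also -0.27 to 0.0687 (Dab2) and -0.17 to 0.10 (Stab1). LPS replicate 3 had 0 counts of Marco and Mertk.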

Other observations

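Compound plus LPS against compound, the LPS response of cells given dimethyl itaconate, also moved genes around the 10. Of the 22 regulators tested, 2 were higher and 5 lower, where 18.9% of all genes were called. The retinoid receptor Rxra was 5.17-fold lower (log2 -2.37 ± 0.47, adjusted p = 0.00118) and Tfec 11.0-fold higher (log2 3.46 ± 0.39, adjusted p = 3.13e-06). Among scavenger receptors, Cxcl16 was 5.34-fold higher (log2 2.42 ± 0.29, adjusted p = 6.02e-06) and Scarf1 4.24-fold higher (log2 2.08 ± 0.30, adjusted p = 5.04e-05). The kinase Syk, through which TREM receptors signal, was 1.99-fold higher (log2 0.99 ± 0.30, adjusted p = 0.0268), and Adam17, a protease that sheds Axl, Mertk and Trem2, 2.59-fold higher (log2 1.37 ± 0.36, adjusted p = 0.0107).

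In the fit of Irg1-/- against wild type with replicate number as a block, the TREM list had 0 genes higher and 3 lower of 12, alternative activation 1 higher and 3 lower of 10, and the regulators 3 higher and 3 lower of 21, where 6.26% of all genes tested were called.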
